A study of Mus musculus with 6 samples.

Results

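The 10 genes described here encode ligands of the transforming growth factor beta (TGF-beta) family in the ovary, the activin binding protein follistatin and the receptor of anti-Mullerian hormone. They are Inha, Inhba, Inhbb, Fst, Amh, Amhr2, Bmp2, Bmp4, Gdf9 and Bmp15, chosen by name, and all 10 were found among the 25239 genes of the deposited count table. RNA was sequenced from E18.5 ovaries of C57BL/6 mice, with 3 libraries labelled Hnrnpl-null and 3 labelled WT. Hnrnpl encodes an RNA-binding protein that regulates splicing, and by its title the series concerns intact germ cells and how primordial follicles are established. The titles of those labelled Hnrnpl-null hold the letters CKO without an explanation. The name of the deposited count table holds the letters stra8, also without an explanation. The labels do not state a Cre driver or its cell type, the exons removed or the number of animals per library. Separate animals are not stated for the libraries of a group either, and the p-values therefore reflect only library-to-library spread, which may be technical.

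Activins are dimers of the beta subunits encoded by Inhba and Inhbb, and they signal through type II and type I receptor kinases to SMAD2 and SMAD3. Inhibins pair a beta subunit with the alpha subunit encoded by Inha and oppose activin at its receptors, while follistatin binds activin and blocks it. Bone morphogenetic proteins (BMPs) and anti-Mullerian hormone signal to SMAD1, SMAD5 and SMAD9. In the mouse ovary the inhibin and activin subunits, follistatin, BMP2 and the anti-Mullerian hormone receptor are known products of somatic cells, and GDF9 and BMP15 are secreted by growing oocytes.

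Total counts per library were between 8949781 and 22401419. Pre-ribosomal RNA (Rn45s) made up 86.1% of Hnrnpl-null replicate 3 and 83.0% of WT replicate 1 but at most 36.0% of the others, so those 2 libraries have the fewest counts for other genes. Hnrnpl itself had 166, 173 and 213 CPM (counts scaled to the library size after TMM normalization) in the libraries labelled Hnrnpl-null and 172, 169 and 145 CPM in WT, so the summed count of the gene does not separate the groups and does not check the labels. By cell type the samples are labelled oocyte, but markers of somatic cells were present beside germ cell markers. Foxl2, a transcription factor of pregranulosa cells, was at 23.7, 24.2 and 33.7 CPM in the libraries labelled Hnrnpl-null and at 25.3, 27.9 and 23.4 CPM in WT. The germ cell markers Ddx4 and Dazl were at 11.3 ± 4.68 and 33.4 ± 8.40 CPM in the libraries labelled Hnrnpl-null and at 22.6 ± 2.66 and 57.8 ± 5.42 CPM in WT (SD, n = 3 each). In such bulk libraries, fewer cells of a type and less RNA per cell cannot be told apart.

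None of the 9 testable genes of the set passed the edgeR quasi-likelihood test between the libraries labelled Hnrnpl-null and WT. At a Benjamini-Hochberg adjusted p below 0.05 over all 14849 genes tested, edgeR called 0 of the 9, as did DESeq2 and limma-voom, where edgeR called 4.46% of all genes. At an unadjusted edgeR p below 0.05 there was 1 of the 9, Fst, beside 2746 of all 14849 genes. Their median log2 fold change of Hnrnpl-null over WT was -0.13, beside -0.01 over all genes tested. Bmp15 did not pass the filter on low counts. The groups of CPM values did not overlap for Fst alone, where 25.6% of all genes tested had groups that did not overlap and 13.2% had every library labelled Hnrnpl-null below every WT library.

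The levels of the 10 genes spanned a wide range. Per exonic length, Amhr2 led in both groups with 51.6 ± 5.35 CPM per kilobase in the libraries labelled Hnrnpl-null and 49.8 ± 1.42 in WT. In the libraries labelled Hnrnpl-null, Inha (7.51), Fst (7.13), Bmp2 (6.16) and Inhbb (5.20 CPM per kilobase, means of 3 libraries) followed, and each of these overlapped its neighbour in that order. In WT the order was Fst (9.18), Inha (8.86), Bmp2 (5.78) and Inhbb (4.06 CPM per kilobase), and only Fst and Inha overlapped. Gdf9, Bmp4, Amh and Inhba formed a lower set in both groups, at 0.631 to 1.32 CPM per kilobase in the libraries labelled Hnrnpl-null and 0.875 to 1.39 in WT. Within that set neighbours overlapped in both groups. Bmp15 was lowest in both.

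**Figure D1:**
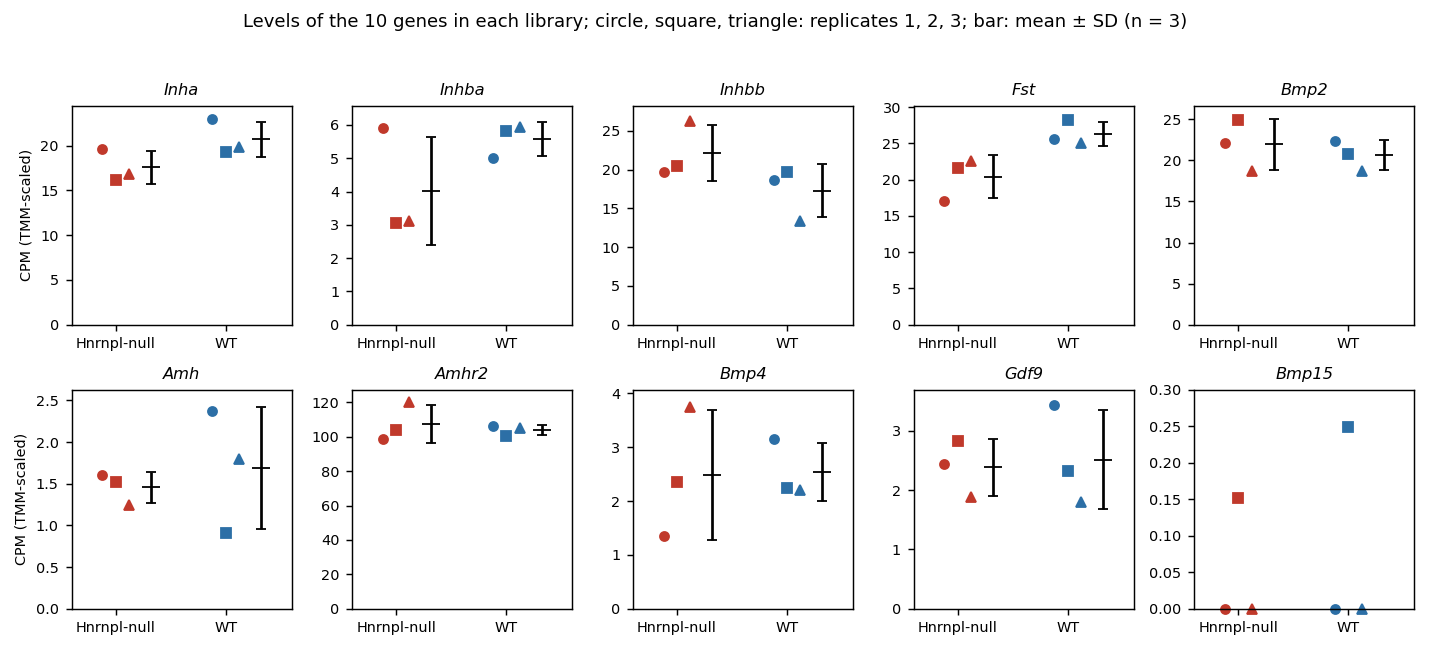
Levels of the 10 genes in CPM on TMM-scaled library sizes (vertical axes start at 0 and differ between panels), with the libraries labelled Hnrnpl-null on the left and WT on the right of each panel. Symbols are single libraries and bars give the mean ± SD of 3 libraries, left out for Bmp15, which has counts in 1 library of each group. The groups are apart for Fst, with 17.0 to 22.5 CPM in the libraries labelled Hnrnpl-null and 25.1 to 28.2 CPM in WT.

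Follistatin had the smallest p of the set. Fst (chromosome 13, 114452262 to 114458951, mm10, minus strand, 6 exons after merging) was at 17.0, 21.7 and 22.5 CPM in the libraries labelled Hnrnpl-null, against 25.6, 28.2 and 25.1 CPM in WT. All 3 libraries labelled Hnrnpl-null lay below all 3 WT libraries. The log2 fold change was -0.39 ± 0.15 (SE), a ratio of 0.766 (95% interval 0.608 to 0.965; adjusted p = 0.20 by edgeR). The direction was the same in each of 19 alternative settings and the call was made in none of them, with adjusted p-values of 0.072 to 1.0 (edgeR, DESeq2 or limma-voom).

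Among the inhibin and activin subunits the estimates pointed in different directions, and no gene was called. Inha (chromosome 1, 75507077 to 75510366, plus strand), the alpha subunit that makes an inhibin, was at 19.6, 16.1 and 16.9 CPM in the libraries labelled Hnrnpl-null and at 22.9, 19.3 and 19.8 CPM in WT. The groups overlapped through Hnrnpl-null replicate 1, which lay between WT replicates 2 and 3. The ratio was 0.856 (95% interval 0.674 to 1.09), with an edgeR adjusted p of 0.50.

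Inhbb (chromosome 1, 119415463 to 119422248, minus strand), the beta B subunit, was at 19.7, 20.4 and 26.2 CPM in the libraries labelled Hnrnpl-null and at 18.7, 19.7 and 13.4 CPM in WT. The lowest value was that of WT replicate 3 and the highest that of Hnrnpl-null replicate 3, while the other 4 libraries lay close together. The ratio was 1.26 (95% interval 0.951 to 1.66), with an edgeR adjusted p of 0.38.

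Inhba (chromosome 13, 16011851 to 16031609, plus strand), the beta A subunit, was at 5.90, 3.05 and 3.12 CPM in the libraries labelled Hnrnpl-null and at 5.01, 5.80 and 5.93 CPM in WT. Hnrnpl-null replicate 1 lay at the WT level and the other 2 libraries of its group below it. The counts of Inhba were 140, 80 and 10 in the libraries labelled Hnrnpl-null and 38, 140 and 86 in WT. The ratio was 0.746 (95% interval 0.456 to 1.22), with an edgeR adjusted p of 0.55. Its log2 fold change was -0.42 with all libraries, -0.87 without Hnrnpl-null replicate 1 and -0.19 without Hnrnpl-null replicate 2 (edgeR adjusted p = 0.25 and 0.86).

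The 250 bases before the RefSeq start of Inhba (GRCm38.p6, chr13:16011601-16011850, plus strand) are shown because, of the 6 genes of the set with a promoter in the RefSeq table, this one held the most copies of the letters TAATTG, an element bound by NOBOX. Nobox, a homeobox factor of oocytes, was itself at 1.85, 2.40 and 2.50 CPM in the libraries labelled Hnrnpl-null and at 22.3, 22.4 and 17.6 CPM in WT. Capitals mark TAATTG or its complement on the other strand (CAATTA).
Inhba: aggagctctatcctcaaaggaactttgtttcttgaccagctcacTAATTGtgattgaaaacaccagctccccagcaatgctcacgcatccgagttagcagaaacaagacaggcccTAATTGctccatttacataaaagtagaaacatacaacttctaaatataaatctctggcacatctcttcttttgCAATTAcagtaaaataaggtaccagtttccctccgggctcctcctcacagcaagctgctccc
The copies begin 206, 135 and 62 bases before the start. At least 1 copy on either strand was found in 7.17% of 32851 promoter windows of this length. A match of letters is a description and not a binding site, and a link between these letters and the level of Inhba was not tested.

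Ratios between genes of 1 library do not depend on how libraries are scaled. Follistatin per activin beta subunit, as Fst over Inhba plus Inhbb per exonic length, was 1.07, 1.43 and 1.18 in the libraries labelled Hnrnpl-null and 1.72, 1.78 and 2.15 in WT. All 3 ratios of the libraries labelled Hnrnpl-null lay below those of WT. The mean log2 ratio was lower by a difference of -0.62 (Hnrnpl-null minus WT), with an exact two-sided permutation p of 0.10, the smallest that 3 against 3 libraries allow. It was 0.37 when adjusted over the 11 ratios tested. The log2 ratio of Inha to Inhba plus Inhbb was 0.60, 0.39 and 0.12 in the libraries labelled Hnrnpl-null and 0.92, 0.58 and 1.06 in WT, and the groups overlapped (exact permutation p = 0.20).

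Relative to Foxl2, the follistatin and beta B values pointed in opposite directions. The log2 ratio of Fst to Foxl2 per exonic length was -0.66, -0.34 and -0.77 in the libraries labelled Hnrnpl-null and -0.17, -0.17 and -0.08 in WT, which did not overlap. That of Inhbb to Foxl2 was -1.02, -0.998 and -1.12 in the libraries labelled Hnrnpl-null and -1.19, -1.26 and -1.57 in WT, which also did not overlap. Both had an exact two-sided permutation p of 0.10, the smallest possible, and 0.37 when adjusted. The log2 ratios of Inha, Amhr2 and Bmp2 to Foxl2 had groups that overlapped, with differences (Hnrnpl-null minus WT) of -0.31, -0.03 and 0.01.

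**Figure D2:**
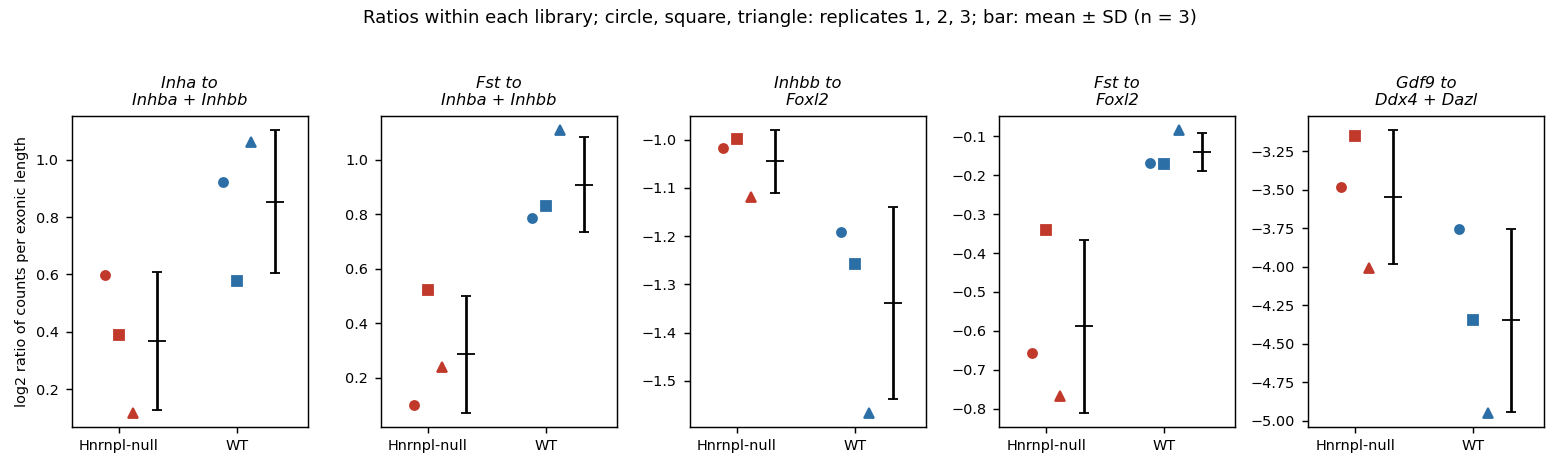
Log2 ratios of counts per exonic length within each library (vertical axis, log2 scale, ranges differ between panels), with the libraries labelled Hnrnpl-null on the left and WT on the right. Symbols are single libraries and bars give the mean ± SD of 3 libraries. The groups are apart for Fst to Inhba plus Inhbb, Inhbb to Foxl2 and Fst to Foxl2, and they overlap for Inha to Inhba plus Inhbb and Gdf9 to Ddx4 plus Dazl.

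The receptor of anti-Mullerian hormone was the most precisely measured gene of the set. Amhr2 (chromosome 15, 102445002 to 102454639, plus strand), a type II receptor kinase, was at 98.6, 104 and 120.0 CPM in the libraries labelled Hnrnpl-null and at 106, 100.5 and 105 CPM in WT. The WT values lay inside the range of the libraries labelled Hnrnpl-null. The ratio was 1.03 with a 95% interval of 0.876 to 1.22 (edgeR adjusted p = 0.87). Its sign changed in 4 of the 19 alternative settings.

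The 250 bases before the RefSeq start of Amhr2 (GRCm38.p6, chr15:102445117-102445366, plus strand) are shown because this was the gene with the highest level. Capitals mark AAGGTCA, a half-site of the somatic nuclear receptor NR5A1, and CAATTA, the reverse complement of the NOBOX letters.
Amhr2: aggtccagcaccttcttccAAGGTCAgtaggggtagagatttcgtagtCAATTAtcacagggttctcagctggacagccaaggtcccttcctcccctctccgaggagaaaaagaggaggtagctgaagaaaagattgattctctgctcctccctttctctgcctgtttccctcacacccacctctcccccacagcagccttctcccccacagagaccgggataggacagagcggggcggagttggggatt
Of this window, 22 bases lie in an exon of Amhr2 in the deposited table. AAGGTCA begins 231 bases before the start and CAATTA begins 202 bases before it. AAGGTCA on either strand was found in 4.08% of the 32851 windows, and in 1 of the 6 promoters of the set. Inha, Inhbb and Bmp4 held neither set of letters. Of the 250 bases of the Inha window, 160 lie in exonic sequence of Inha in the deposited table.

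Its ligand was scarce at this age. Amh (chromosome 10, 80805240 to 80807679, plus strand), which granulosa cells of growing follicles and fetal Sertoli cells are known to secrete, was at 1.602, 1.52 and 1.25 CPM in the libraries labelled Hnrnpl-null and at 2.37, 0.912 and 1.79 CPM in WT. All 3 values of the libraries labelled Hnrnpl-null lay inside the WT range. These levels rest on 82 counts over the libraries labelled Hnrnpl-null and 66 counts over WT. The ratio was 0.914 with a wide 95% interval, 0.385 to 2.17 (adjusted p = 0.94 by edgeR). Of 6 tested markers of Sertoli cells and testis, 0 were called by edgeR. An unadjusted p below 0.05 was found for 1 of them, beside 2746 of all 14849 genes. Their list summed to 24.5 to 34.4 CPM per library in those labelled Hnrnpl-null and 28.1 to 32.1 CPM in WT.

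The BMP ligands did not separate the groups. Bmp2 (chromosome 2, 133552159 to 133562896, plus strand), made by pregranulosa cells in the fetal mouse ovary, was at 22.1, 25.0 and 18.7 CPM in the libraries labelled Hnrnpl-null and at 22.4, 20.7 and 18.7 CPM in WT. The ratio was 1.08 (95% interval 0.858 to 1.37), with an edgeR adjusted p of 0.75. The groups overlapped over most of their range.

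Bmp4 (chromosome 14, 46383525 to 46390669, minus strand), which acts on germ cell precursors in the mouse embryo, was at 1.35, 2.36 and 3.75 CPM in the libraries labelled Hnrnpl-null and at 3.16, 2.24 and 2.21 CPM in WT. The libraries labelled Hnrnpl-null held both the lowest and the highest value. Its ratio of 0.907 had a 95% interval of 0.434 to 1.89 (edgeR adjusted p = 0.91). Of its exonic bases, 82 also lie in exons of a gene model on the other strand (Gm15217), and without a known strand setting reads there cannot be assigned.

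The oocyte growth factors were low in both groups, and Bmp15 was at the limit of detection. Gdf9 (chromosome 11, 53433286 to 53437902, plus strand), needed for follicle growth in mice, was at 2.45, 2.82 and 1.87 CPM in the libraries labelled Hnrnpl-null and at 3.43, 2.32 and 1.79 CPM in WT. WT held both the highest and the lowest value. The ratio was 1.003 with a 95% interval of 0.531 to 1.89 (edgeR adjusted p = 0.999), resting on 138 counts over the libraries labelled Hnrnpl-null and 108 over WT. Of the 8 germ cell markers that edgeR called lower, the ratios of Dazl (0.562) and Ddx4 (0.534) lie inside that interval. The ratios of the other 6 lie below it, as low as 0.105 for Nobox. Among those 6, Mael is just below, at 0.516, and its own 95% interval of 0.407 to 0.656 overlaps that of Gdf9. The difference between Gdf9 and these markers was not tested in the fit. The log2 ratio of Gdf9 to Ddx4 plus Dazl per exonic length was -3.48, -3.15 and -4.01 in the libraries labelled Hnrnpl-null and -3.75, -4.34 and -4.95 in WT. The groups overlapped through Hnrnpl-null replicate 3 and WT replicate 1, the 2 libraries richest in Rn45s, and the difference (Hnrnpl-null minus WT) of 0.80 had an exact two-sided permutation p of 0.20. Without those 2 libraries, the ones through which the groups overlap, the difference was 1.33, for which no p is given. The Gdf9 counts behind these ratios were 58, 74 and 6 in the libraries labelled Hnrnpl-null and 26, 56 and 26 in WT.

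Bmp15 (chromosome X, 6314054 to 6320724, minus strand), the X-linked partner of GDF9, had 0, 4 and 0 counts in the libraries labelled Hnrnpl-null and 0, 6 and 0 counts in WT. Both group sums lay at or under the limit that a count of 0 allows, taken as 6 counts, or 3 read pairs, over a group. That limit corresponds to 0.113 CPM over the libraries labelled Hnrnpl-null and 0.130 CPM over WT and covers counting error only. No fold is given, and a difference was not detectable at this depth. The 250 bases before its RefSeq start (GRCm38.p6, chrX:6320725-6320974, minus strand) are shown because this gene had the lowest level. They hold no copy of TAATTG or AAGGTCA on either strand, so no letter is in capitals.
Bmp15: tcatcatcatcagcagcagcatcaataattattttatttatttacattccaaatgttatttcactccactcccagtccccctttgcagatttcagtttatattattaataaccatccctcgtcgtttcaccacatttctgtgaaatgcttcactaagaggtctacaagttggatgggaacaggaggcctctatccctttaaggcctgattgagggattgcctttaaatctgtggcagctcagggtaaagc
The shorter E-box letters CANNTG occurred once in this window, and in 66.2% of all windows. The absence of the letters in this window says nothing of the factors that bind them.

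**Figure D3:**
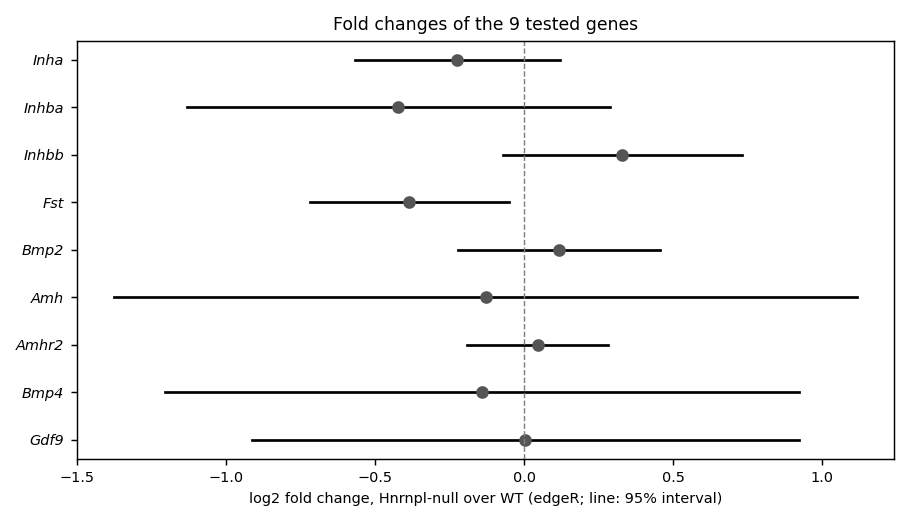
Log2 fold changes of Hnrnpl-null over WT (horizontal axis) for the 9 tested genes, with 95% intervals from the edgeR quasi-likelihood test (n = 3 libraries each). Intervals of all but Fst include 0, Amhr2 has a narrow one (ratio 0.876 to 1.22) and Amh, Bmp4, Gdf9 and Inhba have wide ones.

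Beyond the 10 genes, 82 further genes of the same pathway were followed in 6 lists, and 67 passed the filter on low counts. Of these, 3 were higher and 1 was lower in the libraries labelled Hnrnpl-null, beside 2.67% higher and 1.79% lower calls over all genes tested. The median log2 fold change of the 67 was 0.06. The 3 higher were Tgfb1, Tgfbr2 and Ltbp1, which encode a ligand, a receptor and a matrix protein that holds latent TGF-beta, and the lower one was Id1, an inhibitor of helix-loop-helix factors and a target of BMP signalling. Without Hnrnpl-null replicate 2 or WT replicate 2, 1 was higher (Tgfb1) and 0 were lower, and 0 were lower without Hnrnpl-null replicate 1.

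Among the ligands, Tgfb1 was at 22.6, 21.9 and 16.2 CPM in the libraries labelled Hnrnpl-null and at 8.43, 9.12 and 11.2 CPM in WT. The groups did not overlap, and Tgfb1 rose (log2 fold change 1.10, SE 0.19; adjusted p = 0.0052 by edgeR), with its call kept without any 1 library (edgeR adjusted p of 0.0014 to 0.045). It was the 1 call among 15 tested ligands of the other TGF-beta, BMP and GDF genes. Gdf7, a roof plate ligand of the mouse neural tube, was chosen for mention after its values were seen. It was at 1.77, 0.228 and 20 CPM in the libraries labelled Hnrnpl-null and at 181, 2.24 and 5.24 CPM in WT, where WT replicate 1 holds nearly all of the signal. It was not called.

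Among 15 tested receptors and co-receptors, Tgfbr2, the type II receptor of TGF-beta, was the 1 call. It was at 72.3, 70.9 and 65.6 CPM in the libraries labelled Hnrnpl-null and at 45.6, 41.0 and 54.2 CPM in WT, which did not overlap. Tgfbr2 rose (log2 fold change 0.57, SE 0.13; adjusted p = 0.022 by edgeR). The call was lost without Hnrnpl-null replicate 1 or 2 or WT replicate 1 or 2 (edgeR adjusted p of 0.075 to 0.13). Of the 15, 3 had an unadjusted p below 0.05, beside 2746 of all 14849 genes. The activin receptors Acvr2a and Acvr2b were not called, at 26.7 ± 4.85 and 27.1 ± 6.35 CPM in the libraries labelled Hnrnpl-null and at 28.0 ± 2.24 and 37.4 ± 5.18 CPM in WT (edgeR adjusted p = 0.83 and 0.20), and Acvr2b was among those 3. The BMP receptors Bmpr1a and Bmpr2 were at 109.9 ± 11.9 and 119 ± 28.7 CPM in the libraries labelled Hnrnpl-null and at 99.9 ± 10.02 and 122 ± 5.96 CPM in WT (SD, n = 3 each).

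The SMAD proteins, which carry the signal to the nucleus, had 8 members tested. Neither edgeR nor DESeq2 nor limma-voom called any of them (0 of 8). An unadjusted edgeR p below 0.05 was found for 0 of them, beside 2746 of all 14849 genes. Smad5, of the BMP branch, was at 123 ± 14.0 CPM in the libraries labelled Hnrnpl-null and 114 ± 0.447 CPM in WT. Smad3, of the activin branch, was at 99.7 ± 4.95 CPM in the libraries labelled Hnrnpl-null and 92.7 ± 9.34 CPM in WT (SD, n = 3 each). Over the 8 genes the log2 fold changes had a median of 0.11.

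Of 16 SMAD target genes tested, Ltbp1 was higher and Id1 was lower. Id1 was at 54.9, 54.5 and 72.5 CPM in the libraries labelled Hnrnpl-null, against 89.8, 105 and 88.6 CPM in WT, which did not overlap. Id1 fell (log2 fold change -0.66, SE 0.13; adjusted p = 0.014 by edgeR), and the call was lost without Hnrnpl-null replicate 1 or 2 or WT replicate 2 (edgeR adjusted p of 0.066 to 0.094). The other ID genes were not called, and their log2 fold changes were -0.04 for Id2, -0.11 for Id3 and -0.19 for Id4. Ltbp1 was at 175, 176 and 177 CPM in the libraries labelled Hnrnpl-null and at 125, 126 and 111 CPM in WT. Ltbp1 rose (log2 fold change 0.54, SE 0.11; adjusted p = 0.013 by edgeR), and its call was lost without Hnrnpl-null replicate 2 or WT replicate 2 or 3 (edgeR adjusted p of 0.053 to 0.065).

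**Figure D4:**
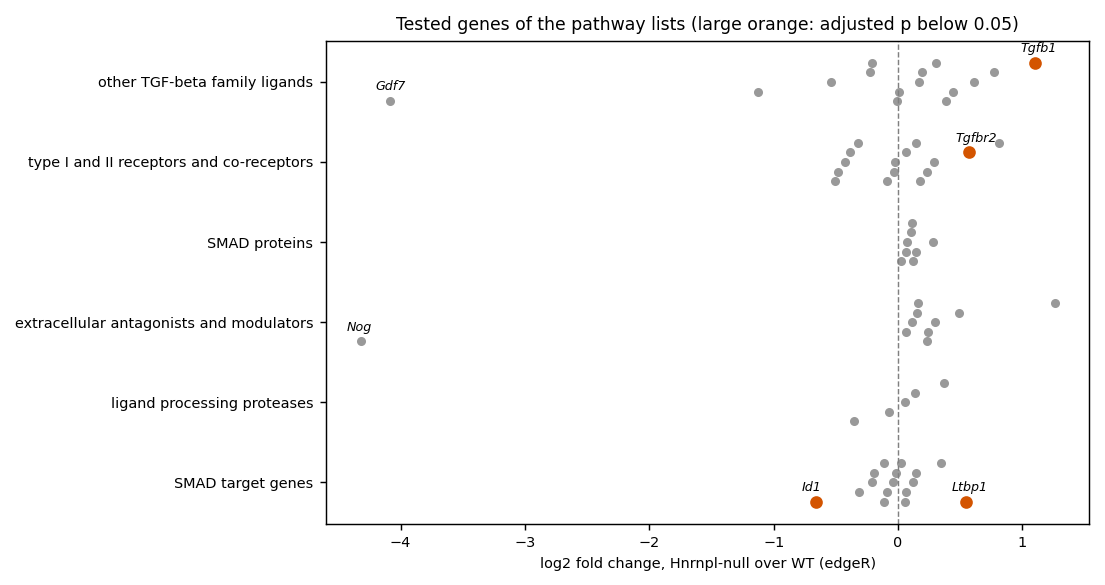
Log2 fold changes of Hnrnpl-null over WT (horizontal axis, edgeR) for the tested genes of the 6 pathway lists, 1 point per gene, with called genes large and orange (adjusted p below 0.05). Most points lie near 0, the 4 called genes are named, and Gdf7 and Nog are far to the left without being called.

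Extracellular antagonists and the proteases that cut ligand precursors gave 0 calls by edgeR among 10 and 5 tested genes. Of these, 3 and 1 had an unadjusted p below 0.05, beside 2746 of all 14849 genes. DESeq2 also called 0 of both lists, giving no adjusted p for Nog, and limma-voom called Fstl1 and Twsg1 higher. The BMP antagonist Nog was at 1.85, 1.14 and 0.625 CPM in the libraries labelled Hnrnpl-null and at 87.7, 0.332 and 0.551 CPM in WT. As for Gdf7, WT replicate 1 stands apart. The log2 fold change of Nog was -4.32 with all libraries and 1.57 without WT replicate 1, and neither was called by edgeR (adjusted p = 0.12 and 0.44). With no filter on low counts edgeR called both Nog (adjusted p = 1.7e-08) and Gdf7 lower, and Nog was also called with library totals without Rn45s (adjusted p = 0.036). Pcsk5 and Pcsk7, proprotein convertases, were at 22.7 ± 0.390 and 17.7 ± 3.77 CPM in the libraries labelled Hnrnpl-null and at 17.5 ± 0.641 and 22.5 ± 2.04 CPM in WT, and neither was called.

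Markers of several cell types moved with genotype beside these values. The 10 leukocyte and myeloid markers summed to 579.6 to 710.2 CPM in the libraries labelled Hnrnpl-null and 72.2 to 77.1 CPM in WT, and 5 were higher, led by Mpo, Elane and Coro1a. Mpo, at 451 ± 63.9 CPM in the libraries labelled Hnrnpl-null and 0.437 ± 0.153 CPM in WT, made up most of the first sum. The other 9 summed to 180.5 to 188 CPM in the libraries labelled Hnrnpl-null and 71.7 to 76.8 CPM in WT. Cd68, C1qa, Csf1r, Adgre1 and Lyz2 were not called, apart from Csf1r by edgeR without Hnrnpl-null replicate 1 or with no filter on low counts. Of these macrophage and myeloid genes, Cd68 and C1qa had negative log2 fold changes (-0.18 and -0.25). Csf1r, Adgre1 and Lyz2 had positive ones (0.54, 0.69 and 0.14). For Csf1r and Adgre1 every library labelled Hnrnpl-null lay above every WT library, beside 12.4% of all genes tested. The 9 stroma and pericyte markers summed to 4747 to 5165 CPM in the libraries labelled Hnrnpl-null and 3116 to 3331 CPM in WT, most of it Col1a1. Of these 9, Col1a1, Dcn and Des were called higher, but 0 were without Hnrnpl-null replicate 2 and 1 without Hnrnpl-null replicate 1 or WT replicate 2 or 3. The rest were not called by edgeR with all libraries. Lum was called higher by limma-voom, and by edgeR without Hnrnpl-null replicate 3. Acta2, Rgs5, Tcf21 and Nr2f2 had negative log2 fold changes (-0.29, -0.34, -0.16 and -0.04), and Pdgfra and Lum had positive ones (0.15 and 0.38). The part of either cell type in the values of Tgfb1, Tgfbr2 and Ltbp1 was not tested.

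The 12 listed germ cell markers summed to 159 to 189 CPM in the libraries labelled Hnrnpl-null and 301 to 327 CPM in WT, with 8 of 9 tested lower, led by Nobox, Sohlh1 and Lhx8. Without 1 library, 5 to 9 were lower, with the 5 when Hnrnpl-null replicate 2 was left out. Oosp1 was at 0 in all libraries, and Kit was the most abundant, at 88.7 ± 3.93 CPM in the libraries labelled Hnrnpl-null and 97.0 ± 4.93 CPM in WT. The 13 pregranulosa markers summed to 850.5 to 939 CPM in the libraries labelled Hnrnpl-null and 820 to 890.3 CPM in WT, with Kitl the 1 of 12 tested that edgeR called. DESeq2 and limma-voom also called Irx3, a transcription factor of supporting cells, lower (edgeR adjusted p = 0.060). The same call was made by edgeR with no filter on low counts, counts divided by 2 or the robust fit. It was also made by edgeR without Hnrnpl-null replicate 3 or WT replicate 3. Irx3 was at 29.0 ± 2.996 CPM in the libraries labelled Hnrnpl-null and 42.2 ± 7.64 CPM in WT. The most abundant pregranulosa marker, Wt1, was at 207 ± 19.2 CPM in the libraries labelled Hnrnpl-null and 211 ± 14.0 CPM in WT (SD, n = 3 each). The 7 endothelial markers summed to 158 to 174 CPM in the libraries labelled Hnrnpl-null and 159.7 to 191 CPM in WT. The main edgeR test called 0 of them, and 3 had an unadjusted p below 0.05, beside 2746 of all 14849 genes.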

How the data were processed

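RNA was measured in 6 libraries of E18.5 ovary, and the authors deposited raw counts per gene in 1 table of 25239 rows, each with a gene name, laid out as featureCounts writes it per the file headers, with exonic lengths and coordinates. The submitters' processing notes name mm10, featureCounts 2.0.6, HISAT2 2.2.1 and STAR 2.7.11a without saying which did what. Which annotation and strand setting were used is not given in the sources used here. Among counts of 1 to 20, even numbers made up 93.4% to 98.4%, as if both mates of a pair were counted, and totals then overstate fragments. On counts divided by 2, each replicate pair differed beyond counting noise (lowest chi-square over its degrees of freedom, 5.47), and none was treated as a copy.

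The test was that of edgeR 4.0.16, run in R 4.3.3 (filterByExpr, TMM, quasi-likelihood test, two-sided, genotype as the only term), and genes were called at an adjusted p below 0.05 over 14849 genes. CPM are on TMM-scaled sizes, at which 1 CPM is worth 3.20 counts (Hnrnpl-null replicate 3) to 26.3 counts (Hnrnpl-null replicate 2). Standard errors come from the F statistic. The test was tried on simulated counts. It called 11.9% of genes given a 1.5-fold change, 49.3% of those given a 2-fold change and 78.8% at 4-fold. Over these genes, drawn at random from all genes tested, changes of 1.5-fold were mostly missed. The shares mix genes of all levels and are not those of any 1 gene described here. Ratios within libraries used exact permutation tests, and 2 of 13 ratios could not be computed because Bmp15 was at 0. The members and lists were chosen with earlier results of these data known. The text names all 10 genes and, of each list, up to 3 called genes by p (otherwise the 2 smallest p of pathway lists) and the most abundant marker. A gene that this rule takes is not reported here. Other genes named (Foxl2, Ddx4, Dazl, Gdf7, Eng, Irx3, Cd68, C1qa, Acvr2a, Acvr2b, Bmpr1a, Bmpr2, Id2, Id3, Id4, Fstl1, Twsg1 and Oosp1) were chosen after their values were seen. So were Cdh5, Tie1, Emcn, Tek, Pecam1, Esam, Acta2, Rgs5, Tcf21, Nr2f2, Pdgfra, Lum, Lhcgr, Cyp17a1, Hsd3b1, Csf1r, Adgre1, Lyz2 and Mael. Alternatives were DESeq2 1.42.0, limma 3.58.1 voom, other scalings and filters, leaving out libraries, a replicate block, counts divided by 2 and robust dispersions. Promoter letters are from RefSeq on GRCm38.p6, the assembly of mm10. They were matched by symbol for 6 of the 10 genes.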

Additional observations from a re-analysis of the deposited data

How the results depend on the processing

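None of the 9 genes tested was called in any of 19 alternative settings, nor was Bmp15 in the 1 that tested it, and the signs of Inha, Inhba, Inhbb, Fst and Bmp2 were kept in all 19, while those of Amh, Amhr2, Bmp4 and Gdf9 changed in 4, 4, 2 and 8 of them. Of the 67 other pathway genes, library totals alone, which the Rn45s share sets, called 0 higher and 0 lower. Library totals without the Rn45s row, chosen after seeing the data, called 0 higher and 1 lower (Nog). Limma-voom called 5 higher, and with no filter on low counts 4 were lower (Eng, Gdf7, Id1 and Nog). Leaving out 1 library gave 1 to 3 higher and 0 to 1 lower. The difference in the log2 ratio of Gdf9 to Ddx4 plus Dazl was 0.80 with all libraries and 0.50 to 1.10 without any 1 library. It was 1.33 without the 2 libraries richest in Rn45s, through which the groups overlap. The cause was not tested.

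Over all genes, 397 higher and 266 lower calls became 3 and 1 with library totals alone and 123 and 132 with totals without Rn45s. DESeq2 called 1086, limma-voom 1273, no filter 1104 and leaving out 1 library 249 to 853 genes. Deviations of same-numbered libraries correlated at -0.12, 0.09 and -0.09, and 2 of 6 libraries correlated best with their own number. These values did not show a pairing by replicate number, and with 3 libraries per group they cannot exclude one. With the replicate block, 0 of the 9 genes tested, 3 higher and 1 lower of the pathway genes and 444 genes in all were called, and the calls of Des (edgeR adjusted p = 0.076) and Ddx4 were lost, which left 7 germ cell markers lower. Amh, Bmp4, Gdf9, Bmp15 and, in Hnrnpl-null replicate 3, Inhba are limited by depth.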

Other observations

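Kitl, the pregranulosa ligand of the oocyte receptor Kit, was higher in the libraries labelled Hnrnpl-null. It was at 170.5, 178 and 173 CPM in the libraries labelled Hnrnpl-null and at 85.9, 71.9 and 77.5 CPM in WT (log2 fold change 1.15, SE 0.11; adjusted p = 3.7e-05 by edgeR). Its call was kept without any 1 library (edgeR adjusted p of 4.7e-05 to 0.0010).

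Among 5 tested markers of steroid-producing cells, Cyp11a1, the enzyme that cleaves the side chain of cholesterol, was higher. It was at 8.52, 11.6 and 13.7 CPM in the libraries labelled Hnrnpl-null and at 1.58, 2.57 and 3.997 CPM in WT (log2 fold change 1.97, SE 0.33; adjusted p = 0.0038 by edgeR), and its call was kept without any 1 library (edgeR adjusted p of 0.0046 to 0.034). Star, which carries cholesterol into mitochondria, was the most abundant of the list, at 38.9 ± 9.73 CPM in the libraries labelled Hnrnpl-null and 26.0 ± 2.18 CPM in WT (SD, n = 3 each), which edgeR did not call (adjusted p = 0.096). DESeq2 called Star higher (adjusted p = 0.049), as did edgeR without Hnrnpl-null replicate 1 (0.015), with no filter on low counts (0.015) and with the robust fit (0.0497). The list of 7 summed to 55.9 to 82.2 CPM in the libraries labelled Hnrnpl-null and 45.8 to 51.3 CPM in WT. Its other tested markers were not called by edgeR. Lhcgr and Cyp17a1 had negative log2 fold changes (-0.84 and -0.20) and Hsd3b1 a positive one (0.29). For Lhcgr every library labelled Hnrnpl-null lay below every WT library. Cyp26b1, which degrades retinoic acid and was the most abundant of the testis list, was at 7.56 ± 1.04 CPM in the libraries labelled Hnrnpl-null and 10.8 ± 1.76 CPM in WT, which edgeR did not call (adjusted p = 0.22). Kdr, an endothelial receptor of VEGF, was at 103 ± 1.99 CPM in the libraries labelled Hnrnpl-null and 80.8 ± 3.33 CPM in WT. It was not called by the main edgeR test (adjusted p = 0.079), while DESeq2 and limma-voom called it higher (adjusted p = 0.026 and 0.033). The robust edgeR fit also called Kdr higher. DESeq2 and limma-voom called Cdh5 of the same list lower, which the main edgeR test did not (log2 fold change -0.64, edgeR adjusted p = 0.065). However, edgeR called Cdh5 lower with no filter on low counts, counts divided by 2, the robust fit or without the 2 libraries richest in Rn45s. Tie1, Emcn, Tek, Pecam1 and Esam had negative log2 fold changes too (-0.70, -0.81, -0.35, -0.23 and -0.12). The median of the tested endothelial markers was -0.35.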
